A study of Sus scrofa with 70 samples.

Results

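The miRNAs of boar testis were compared between the Diannan small-ear pig (DSE) and the Banna mini-pig inbred line (BMI). BMI was bred from DSE by mating full siblings or parents with offspring, and DSE is not inbred, so the groups differ in inbreeding on a related background. Both breeds were sampled as boars of 12 months with no treatment, and each breed gave 3 small RNA libraries of testis. The 6 testis libraries belong to a set of 30 small RNA libraries, and the others came from the epididymis (Epi) and 3 accessory glands, which are the bulbourethral (BG), the prostate (PG) and the vesicular gland (VG). The labels do not say which libraries came from which animal, so the p-values measure the spread between libraries. RNA was taken from bulk tissue, in which fewer cells of a type and less RNA per cell cannot be told apart.

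An entry is a mature miRNA counted with one of its precursors, and its abundance is given as RPM, its reads scaled to the reads on all entries of the library. Entries were kept where 3 or more of the 6 testis libraries reached 1 RPM. These were 485 of the 743 entries in the table, of which 352 were known miRNAs and 133 were predicted ones. The 485 entries carry 430 distinct names, since a read that maps to several precursors is counted with each. Another 258 entries were left out, and 36 of these were at 0 in all 6 libraries. Of those kept, 11 passed through the 3 DSE libraries alone and 2 through the 3 BMI libraries alone.

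MiRNAs are short RNAs cut from a hairpin precursor, and they guide the Argonaute proteins to partly complementary messenger RNAs, which are then repressed or degraded. Pairing at the seed, bases 2 to 8 of the mature miRNA, does most to decide which messages are bound. In the testis, miRNAs are required for the completion of spermatogenesis, and germ cells, Sertoli cells and Leydig cells each carry their own sets.

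Mature sequences of some of the called known miRNAs are shown first, with the uncalled miR-10b beside its seed mate miR-10a-5p. They are from RefSeq on Sscrofa11.1, 5′ to 3′, with the seed in capitals. The miRNAs shown that are higher in DSE fall into 4 groups. The first is a pair on chromosome 3, miR-217 at chr3:85341286-85341309 and miR-216 at chr3:85334541-85334563, both on the plus strand and 6745 bases apart. The second is a pair on the minus strand of the X chromosome, miR-222 at chrX:40571814-40571837 and miR-221-3p at chrX:40571073-40571094, which share one seed. The third is the miR-129 family, which comes from separate chromosomes, with miR-129a-5p at chr2:18724269-18724289 and miR-129b at chr18:20157266-20157286, both on the minus strand and with the same mature sequence. The fourth is miR-615 at chr5:19246820-19246840 on the plus strand, inside HOXC5.
miR-217: tACTGCATcaggaactgattggat
miR-216: tAATCTCAgctggcaactgtgag
miR-222: aGCTACATctggctactgggtctc
miR-221-3p: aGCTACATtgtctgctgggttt
miR-129a-5p: cTTTTTGCggtctgggcttgc
miR-615: tCCGAGCCtgggtctccctct

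Those lower in DSE include miR-184 at chr7:48345068-48345089 on the plus strand, miR-182 at chr18:18986840-18986863 on the plus strand and miR-18a at chr11:60734804-60734825 on the plus strand. They also include miR-10a-5p at chr12:24833694-24833715 on the minus strand, which shares its seed with miR-10b at chr15:81951653-81951674 on the plus strand. The mature miR-7-5p is encoded at chr1:191218615-191218638 on the minus strand and again at chr10:30986202-30986225 on the plus strand. All of them except miR-184 hold fewer G and C bases than A and T bases.
miR-184: tGGACGGAgaactgataagggt
miR-182: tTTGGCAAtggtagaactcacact
miR-18a: tAAGGTGCatctagtgcagata
miR-10a-5p: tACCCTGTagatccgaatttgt
miR-10b: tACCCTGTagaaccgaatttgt
miR-7-5p: tGGAAGACtagtgattttgttgtt

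The libraries differed along the breeds in the reads that fell on miRNA entries. The BMI libraries held 1294544, 2583040 and 2722685 reads on entries and the DSE libraries 2978119, 11814952 and 6893734 reads, so breed and the reads on entries cannot be told apart. By the study's read statistics the total reads sequenced overlapped between the breeds, and DSE replicates 2 and 3 had shorter reads on average than the other testis libraries. A count of 3 reads corresponded to 1.10 to 2.32 RPM in BMI and to 0.254 to 1.01 RPM in DSE, and this covers counting error only. On log2(RPM + 1), Pearson's r over the entries was 0.983 to 0.989 between BMI libraries, 0.976 to 0.986 between DSE libraries and 0.940 to 0.970 between the breeds. The first principal component held 60.1% of the variance and separated the breeds, with DSE replicate 2 farthest out at 16.4 against 5.99 and 8.12 for the other DSE libraries.

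DSE replicate 2 also stood apart in cell type markers. In the RNA-seq libraries of testis, which carry the same replicate numbers but were not shown to come from the same animals, the summed level of 6 spermatid genes was 67008, 84890 and 71122 TPM in BMI, a unit scaled to transcript length and to the total of the library. It was 101147, 23279 and 71824 TPM in DSE, so the library of DSE replicate 2 was the lowest of all. Its 6 spermatocyte genes summed to 217 TPM against 610 to 928 TPM in the other 5 libraries.
The 5 Sertoli cell genes summed to 205, 208 and 223 TPM in BMI and to 278, 617 and 370 TPM in DSE. The 3 Leydig cell genes summed to 20574, 17754 and 18424 TPM in BMI and to 23153, 61438 and 31434 TPM in DSE. For both of these lists every DSE library lay above every BMI library, and DSE replicate 2 was the highest. The same held for the 2 peritubular genes, at 72.8 to 81.7 TPM in BMI and 83.5 to 133 TPM in DSE. The sums of the endothelial and of the macrophage genes overlapped between the breeds. Of the 8 genes in the Sertoli and Leydig cell lists, INHA and INSL3 did not overlap between the breeds, while SOX9, AMH, CLDN11, WT1, STAR and CYP17A1 did. Of all genes tested by RNA-seq, 24.8% did not overlap.
Of the marker genes, INHA, which encodes the inhibin alpha subunit of Sertoli cells, had a log2 difference of 1.44 with an adjusted p of 0.0758 by limma. It had the lowest adjusted p of the marker genes, none of which passed.

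The miR-34c of meiotic and post-meiotic germ cells was at 4434, 2371 and 3652 RPM in BMI and at 4906, 1218 and 4939 RPM in DSE, with DSE replicate 2 again the lowest. Its log2 difference was -0.13 (SE 0.58, adjusted p = 0.900 by limma) with all libraries and 0.55 (adjusted p = 0.374) without DSE replicate 2. The gonadal somatic miR-202-5p was at 4993, 5127 and 6712 RPM in BMI and at 7457, 11254 and 8167 RPM in DSE. The breeds did not overlap, and the log2 difference was 0.67 (SE 0.25, adjusted p = 0.130). The part that these cell types and this library have in the results below was not tested beyond the values without DSE replicate 2 given beside them.

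**Figure D1:**
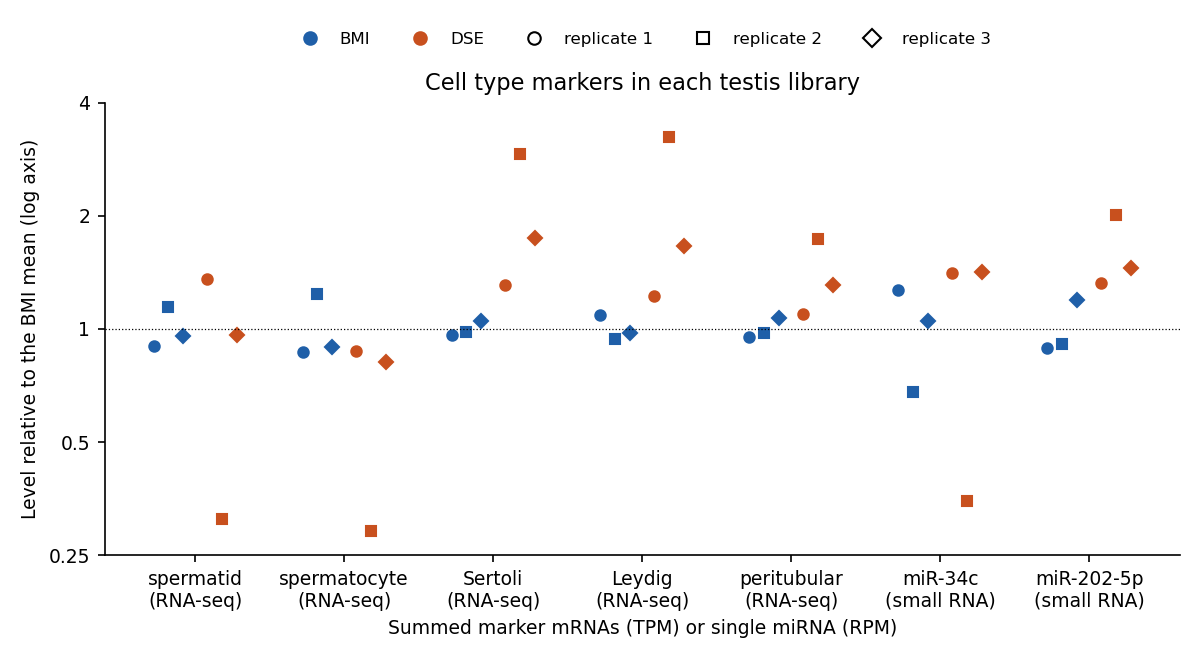
Level of cell type markers in each testis library relative to the mean of the 3 BMI libraries, on a log axis. The 5 mRNA lists are summed TPM of RNA-seq libraries, miR-34c and miR-202-5p are RPM of small RNA libraries, colour is the breed and marker shape the replicate number. DSE replicate 2 is lowest for spermatid genes, spermatocyte genes and miR-34c, and highest for Sertoli genes, Leydig genes and miR-202-5p.

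The testis of DSE held more of the miR-216/217, miR-221/222 and miR-129 families and of miR-615, and less of miR-184, miR-182, miR-10a, miR-7 and 2 members of the miR-17-92 cluster. In all, 46 of the 485 entries (9.48%) passed the limma test with an adjusted p below 0.05 and a log2 difference of at least 1. Of these, 24 were higher in DSE (4.95%) and 22 were lower (4.54%). They carry 42 names, 24 of known and 18 of predicted miRNAs. Among known entries 28 passed (7.95%), 13 higher and 15 lower in DSE, and among predicted entries 18 passed (13.5%), 11 higher and 7 lower.
The breeds did not overlap in 174 of the 485 entries (35.9%), the 46 called entries included. The filter let 11 of the called entries pass through 1 breed alone, 9 of the 24 higher in DSE and 2 of the 22 lower. These had to differ, and they are counted in the numbers of higher and lower calls and in the shares of known and predicted entries above. The median log2 difference over all entries tested was -0.11, and scaling the libraries by size factors moved it by 0.10 to -0.01. The differences below are those of the deposited scale. Without DSE replicate 2 there were 31 calls, 20 higher and 11 lower, and 30 of the entries were among the 46. With all libraries thinned to the reads of the shallowest there were 27 calls, 15 higher and 12 lower, of which 26 were among the 46. Without BMI replicate 2 there were 23 and without BMI replicate 3 there were 29.

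**Figure D2:**
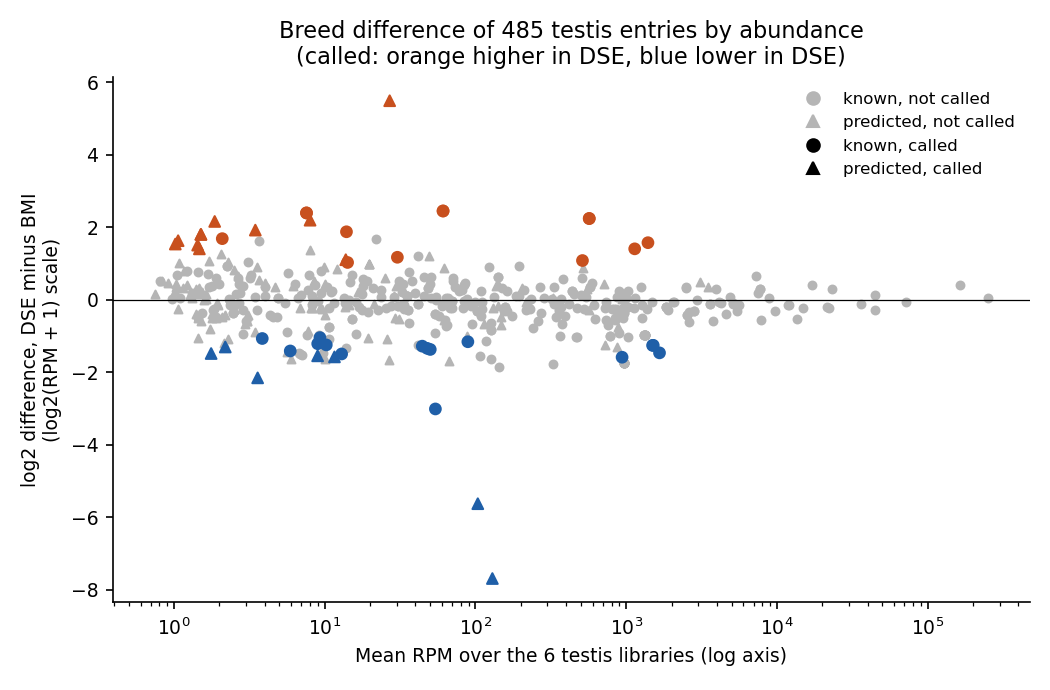
Log2 difference between the breeds (DSE minus BMI, log2(RPM + 1) scale) of the 485 testis entries against their mean RPM over 6 libraries, on a log axis. Circles are known and triangles predicted miRNAs. The 24 called entries higher in DSE are orange and the 22 lower are blue, and the 3 largest differences belong to predicted miRNAs.

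The largest increases in DSE among known miRNAs belonged to a single locus on chromosome 3. miR-217, best known from the pancreas, was at 17.0, 15.9 and 19.1 RPM in BMI and at 97.7, 150.1 and 66.0 RPM in DSE. The means were 17.3 ± 1.64 and 105 ± 42.5 RPM (SD, n = 3), which differ 6.04-fold, and the log2 difference was 2.45 (SE 0.32, adjusted p = 0.00580 by limma). The neighbouring miR-216 was scarcer, at 1.54, 1.55 and 1.84 RPM in BMI and at 12.8, 18.9 and 8.85 RPM in DSE.
Both miRNAs followed the same order of libraries within DSE, with replicate 2 the highest and replicate 3 the lowest. The log2 difference of miR-216 was 2.40 (SE 0.29, adjusted p = 0.00580 by limma). Without DSE replicate 2 the log2 differences were 2.15 for miR-217 and 2.14 for miR-216, both with an adjusted p of 0.00846. The BMI values of miR-216 lie at 2 to 5 reads in a library, so its fold has little precision.

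The miR-221/222 pair lies on the X chromosome and is known for repressing the cyclin-dependent kinase inhibitor CDKN1B and the receptor KIT, which acts in the differentiation of spermatogonia. miR-222 was at 679, 798 and 623 RPM in BMI and at 1898, 2375 and 1993 RPM in DSE. miR-221-3p was at 539, 674 and 655 RPM in BMI and at 1531, 1915 and 1518 RPM in DSE. Both miRNAs varied little within a breed, and every DSE library lay far above every BMI library.
The log2 differences were 1.58 (SE 0.21, adjusted p = 0.00580 by limma) for miR-222 and 1.41 (SE 0.21, adjusted p = 0.00883) for miR-221-3p. Both calls held without DSE replicate 2, with adjusted p of 0.0164 for miR-222, at a log2 difference of 1.48, and of 0.0268 for miR-221-3p. The minor arm miR-221-5p, cut from the same hairpin as miR-221-3p, had a log2 difference of 0.92 with an adjusted p of 0.0781. Of the 37 known names tested that RefSeq places on the X chromosome these 2 were called by limma and by DESeq2, beside 7.95% of all known entries by limma, and edgeR called miR-221-5p as well. The median log2 difference of the 37 names was -0.24, beside -0.08 over all known names.

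The miR-129 family, abundant in brain, had the largest standard error of the known miRNAs named as higher in DSE. miR-129a-5p was at 176, 182 and 195 RPM in BMI and at 544, 1489 and 826 RPM in DSE. The BMI libraries lay close together, while the DSE libraries spread widely with replicate 2 on top. The log2 difference was 2.24 (SE 0.37, adjusted p = 0.0108 by limma), and 1.86 without DSE replicate 2 (adjusted p = 0.0148). The values of miR-129b were the same within 2 RPM in every library because the mature sequence is the same, so the 2 names count as 1 measurement. The other arm, miR-129a-3p, had a mean of 22.0 RPM and a log2 difference of 1.68 that missed the threshold (adjusted p = 0.104).

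Among the remaining increases, miR-615 was at 6.18, 5.81 and 4.04 RPM in BMI and at 19.5, 29.5 and 18.6 RPM in DSE, with a log2 difference of 1.88 (SE 0.27, adjusted p = 0.00729 by limma, 0.0157 without DSE replicate 2). miR-744, from an intron of MAP2K4, was at 402, 300 and 284 RPM in BMI and at 582, 822 and 686 RPM in DSE. Its log2 difference was 1.08 (SE 0.24, adjusted p = 0.0402), which was not called with the replicate number as a block (adjusted p = 0.0811). miR-330 was at 14.7 to 24.0 RPM in BMI and at 34.6 to 53.3 RPM in DSE, with a log2 difference of 1.17 (SE 0.27, adjusted p = 0.0465). That call too was lost with the block (adjusted p = 0.0869). Neither was called without DSE replicate 2, with adjusted p of 0.0891 for miR-744 and 0.0973 for miR-330.

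The largest decrease of a known miRNA was that of miR-184, which is abundant in the eye and in epithelia. It was at 88.8, 64.7 and 138 RPM in BMI and at 12.8, 6.18 and 14.8 RPM in DSE. The means were 97.2 ± 37.4 and 11.2 ± 4.50 RPM (SD, n = 3), which differ 8.64-fold, and even the nearest libraries of the breeds were far apart. The log2 difference was -3.01 (SE 0.40, adjusted p = 0.00580 by limma), and -2.67 without DSE replicate 2 (adjusted p = 0.0130).

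miR-182 belongs to a cluster with miR-183 and miR-96 that is known from sensory cells. It was at 2074, 1096 and 1079 RPM in BMI and at 612, 343 and 430 RPM in DSE, with a log2 difference of -1.59 (SE 0.35, adjusted p = 0.0387 by limma). BMI replicate 1 was the highest library by far, and the call held in only 1 of the 6 fits that leave out a library, with an adjusted p of 0.0891 without DSE replicate 2. Its neighbours miR-183 and miR-96-5p had log2 differences of -1.77 and -1.86, which missed the threshold with adjusted p of 0.0550 and 0.0524. In the smaller fit of names with a mature sequence, given below, miR-183 was called (adjusted p = 0.0369 by limma, 0.0189 with the replicate block).

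The miR-17-92 cluster, which promotes proliferation, was lower in DSE in 2 of its measured members. miR-18a was at 20.9, 18.6 and 19.1 RPM in BMI and at 5.04, 6.09 and 7.98 RPM in DSE, with a log2 difference of -1.49 (SE 0.22, adjusted p = 0.00867 by limma). miR-19a was at 15.5, 12.0 and 11.4 RPM in BMI and at 6.04, 4.23 and 4.79 RPM in DSE, with a log2 difference of -1.21 (SE 0.23, adjusted p = 0.0197). The call of miR-19a was lost without DSE replicate 2 (adjusted p = 0.0558) and that of miR-18a was kept (adjusted p = 0.0268).
Of 10 names of this cluster and its paralogues that were tested, 2 were called, beside 7.95% of all known entries. A log2 difference below 0 was measured for 9 of the 10, beside 56.1% of all entries, and the median was -0.90, beside -0.11. The more abundant members of the cluster did not pass in the fit over all entries. By limma their log2 differences were -1.02 for miR-20a-5p (adjusted p = 0.0555) and -1.01 for miR-17-5p (adjusted p = 0.0752). They were -0.83 for miR-19b (adjusted p = 0.0670) and -0.24 for miR-92a (adjusted p = 0.529). A difference of the same sign without a call was measured for miR-16, at 1169, 957 and 989 RPM in BMI and at 683, 389 and 530 RPM in DSE. Its log2 difference was -0.99 with an adjusted p of 0.0609, and 6 of the 8 names of the miR-15 and miR-16 family were below 0, beside 56.1% of all entries.

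Further abundant or tissue-restricted miRNAs fell in DSE. miR-10a-5p, encoded in the HOXB cluster, was at 2024, 3630 and 1767 RPM in BMI and at 868, 776 and 915 RPM in DSE, with a log2 difference of -1.46 (SE 0.31, adjusted p = 0.0321 by limma, 0.0676 with the replicate block). The other arm of that hairpin, miR-10a-3p, fell with it, from 6.18, 13.9 and 7.35 RPM in BMI to 2.01, 3.05 and 2.90 RPM in DSE. Its log2 difference was -1.41 (SE 0.32, adjusted p = 0.0423 by limma), and the call was lost by edgeR (adjusted p = 0.0629). The seed mate of miR-10a-5p, miR-10b, had a mean of 44934 RPM over the 6 libraries against 1663 RPM for miR-10a-5p, and its log2 difference of -0.27 did not pass (adjusted p = 0.507).
miR-7-5p, known from neurons and endocrine cells, was at 2756, 1868 and 1697 RPM in BMI and at 1188, 784 and 684 RPM in DSE, with a log2 difference of -1.26 (SE 0.31, adjusted p = 0.0485). miR-204 was at 134, 157 and 82.6 RPM in BMI and at 55.1, 50.3 and 55.0 RPM in DSE, with a log2 difference of -1.16 (SE 0.28, adjusted p = 0.0485, 0.0766 with the replicate block). miR-155-5p, an inducer of lymphocyte and macrophage responses, was at 62.6, 79.8 and 47.8 RPM in BMI and at 30.9, 25.7 and 19.6 RPM in DSE (log2 difference -1.28, adjusted p = 0.0372 by limma).
These calls stood near the threshold, and without DSE replicate 2 the adjusted p was 0.0876 for miR-10a-5p, 0.111 for miR-7-5p, 0.108 for miR-204 and 0.0843 for miR-155-5p. miR-135 held without that library, with a log2 difference of -1.27 (adjusted p = 0.0309) against -1.37 (SE 0.21, adjusted p = 0.00957) with it. miR-135 was at 80.3, 61.6 and 76.4 RPM in BMI and at 29.2, 23.8 and 29.5 RPM in DSE. miR-190a was at 12.4 to 18.5 RPM in BMI and at 3.63 to 7.72 RPM in DSE, with a log2 difference of -1.25 (adjusted p = 0.0485 by limma, 0.0896 without DSE replicate 2 and 0.0694 by edgeR). The calls of miR-7-5p, miR-190a, miR-204 and miR-10a-3p each held in 1 of the 6 fits that leave out a library.

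**Figure D3:**
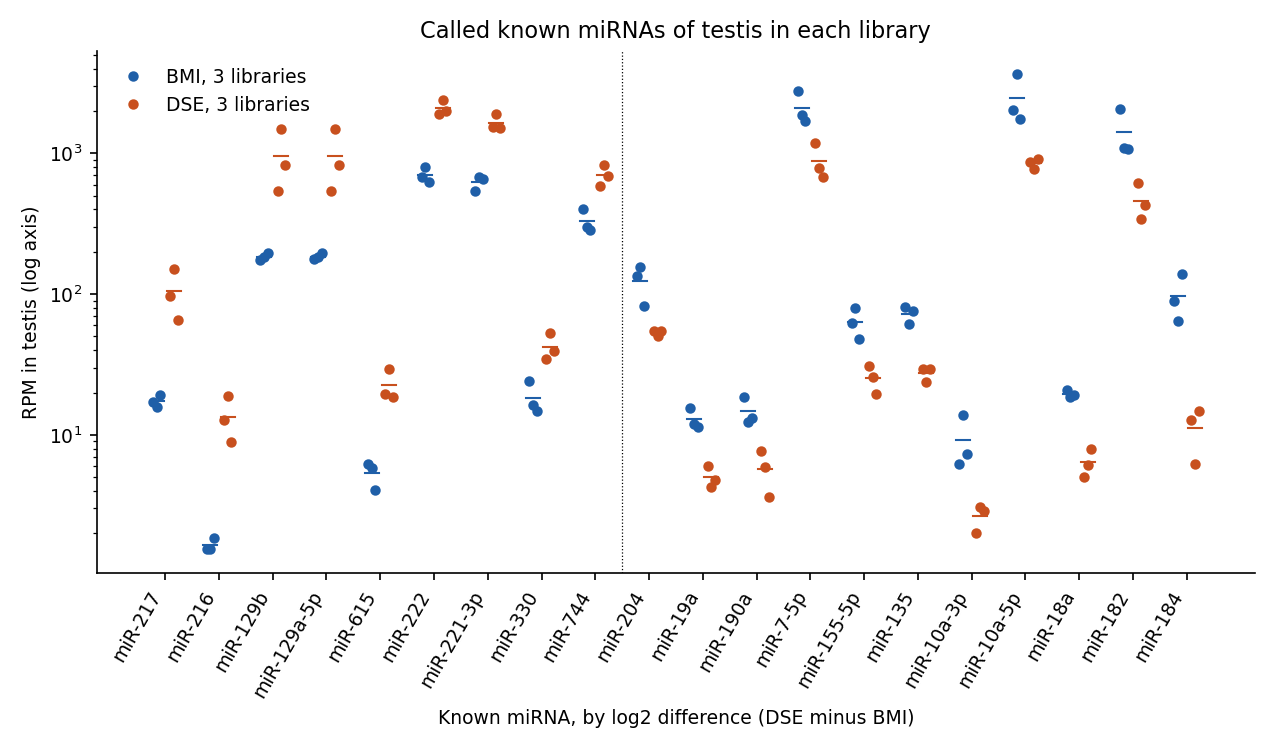
RPM of the called known miRNAs named here in each of the 3 BMI and 3 DSE testis libraries, on a log axis, with a line at the mean of each breed. The miRNAs left of the dotted line are higher in DSE and those to the right are lower. The points of the breeds do not overlap for any of them, which holds for all 46 called entries.

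The remaining called known miRNAs were scarce. miR-1306-3p and miR-670 were higher in DSE, with log2 differences of 1.03 and 1.69, and miR-582-5p and miR-454 were lower, with -1.07 and -1.04. These reached at most 21.2 RPM in a library, and miR-670 was at 0, 0.77 and 0.73 RPM in BMI, which is at most 2 reads. It passed the filter through the DSE libraries alone and so had to differ.

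None of the 10 most abundant miRNAs of the testis was called by limma, edgeR or DESeq2. An unadjusted p below 0.05 was found for 0 of them by limma, 3 by edgeR and 3 by DESeq2, beside 27.6%, 30.3% and 33% of all entries by the same tools. miR-148a-3p was at 206065, 223152 and 320313 RPM in BMI and at 227172, 249075 and 283993 RPM in DSE, and its log2 difference was 0.04 (SE 0.24, adjusted p = 0.914 by limma). miR-143-3p, abundant in smooth muscle, had a log2 difference of 0.42 (SE 0.21, adjusted p = 0.261 by limma) without overlap of the breeds, and 0.56 by edgeR (adjusted p = 0.0384), below the log2 difference of 1 that a call needs. The log2 differences of the other 8 names lay between -0.27 for miR-10b and 0.42 for miR-27b-3p. They included let-7f-5p at -0.23, miR-26a at -0.12 and miR-99a-5p at 0.14.
The 10 names together took 69.2% ± 2.24 of the reads in BMI and 73.1% ± 1.64 in DSE (SD, n = 3), a difference of 3.85 percentage points. An exact two-sided permutation test gave p = 0.2, where 0.1 is the smallest value that 3 against 3 allows. Predicted entries took 1.52% ± 0.109 and 1.56% ± 0.0979 of the reads (exact permutation p = 0.8).

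The summed levels of some lists of miRNAs known from other cell types differed between the breeds without overlap. The epithelial list summed to 3516, 2001 and 2225 RPM in BMI and to 1309, 762 and 1034 RPM in DSE, without overlap, where 35.9% of all entries did not overlap. miR-182, miR-183, miR-375 and miR-96-5p had log2 differences of -1.86 to -1.55, miR-200b was at -0.25 and miR-141 at -0.17, and miR-205, miR-429 and miR-31 lay on the other side at 0.13, 0.68 and 1.20. Of the 9, limma called miR-182 alone, edgeR called miR-31 as well, and DESeq2 called these 2 with miR-183 and miR-96-5p. The epididymis-enriched and HOX cluster list summed to 43718 to 61877 RPM in BMI and to 37026 to 46006 RPM in DSE, with 1 name called higher and 2 lower, and most of this sum was miR-10b.
The endothelial miR-126 arms summed to 15064 to 18353 RPM in BMI and to 10572 to 13512 RPM in DSE. The leukocyte list summed to 897 to 1494 RPM in BMI and 598 to 1109 RPM in DSE with 1 of 7 names called, and the erythroid list to 1986 to 6030 and 3693 to 5085 RPM with none of 3 called and none with an unadjusted p below 0.05 by limma, edgeR or DESeq2. The muscle list summed to 131766 to 172959 RPM in BMI and to 178254 to 200003 RPM in DSE without overlap, but nearly all of it was miR-143-3p, at a mean of 164188 RPM. The median log2 difference of its 9 names was 0.06, and 4 of them were below 0, among them miR-206 at -0.63 and miR-145-5p at -0.49. In this list 0 of 9 names were called by limma, edgeR or DESeq2, and 0 had an unadjusted p below 0.05 by limma, 1 by edgeR and 1 by DESeq2. Over all entries limma called 9.48%, edgeR 8.45% and DESeq2 12.2%, and 27.6% had an unadjusted p below 0.05 by limma. The part of these cell types in the miRNA differences was not tested.
By limma, 0 names were called among 11 of the let-7 family, 10 of the miR-30 family, 8 of the miR-23, miR-24 and miR-27 clusters, 6 of the miR-99, miR-100 and miR-125 families and 10 of the imprinted DLK1-DIO3 cluster, where the calls over all entries made up 9.48%. By limma 2 names of the imprinted cluster, 1 of the miR-30 family and 0 of the others had an unadjusted p below 0.05. By edgeR these were 3 names of the miR-23, miR-24 and miR-27 clusters, 0 of the let-7 family and 1 in each of the others. Calls by edgeR were 0 and by DESeq2 1, in the imprinted cluster. Their median log2 differences ran from -0.40 for the imprinted cluster to 0.12 for the miR-23, miR-24 and miR-27 clusters, beside -0.11 over all entries.

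The largest differences of all belonged to predicted miRNAs, which are named by chromosome and a serial number. Of those named, chr8_43390 and chr14_14086 passed the filter through the BMI libraries alone, and chr1_2528 and chr4_27487 through the DSE libraries alone, so these 4 had to differ, and their values are a description. The entry chr8_43390 was at 301, 247 and 227 RPM in BMI, from 390, 639 and 619 reads. In DSE it was at 0, 0.34 and 0.44 RPM, from 0, 4 and 3 reads. The log2 difference was -7.69 (SE 0.24).
The entry chr13_9416 was at 240, 192 and 180 RPM in BMI and at 2.35, 3.22 and 3.92 RPM in DSE, with a log2 difference of -5.63 (SE 0.24, adjusted p = 1.63e-05 by limma, 0.000185 without DSE replicate 2). In BMI both entries were highest in replicate 1 and lowest in replicate 3. In the opposite direction, chr1_2528 was at 0 in all 3 BMI libraries and at 17.1, 54.6 and 90.1 RPM in DSE, from 51, 645 and 621 reads.
A count of 3 reads in each BMI library corresponds to a mean of 1.53 RPM, so the mean of chr1_2528 was at least 35.3-fold higher in DSE. Its fitted log2 difference of 5.50 depends on the pseudocount. The other predicted entries named by the rule reached at most 18.7 RPM in a library. They were chr4_28420 and chr4_27487, higher in DSE with log2 differences of 2.20 and 2.16, and chr14_14086, lower with -2.16.

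The 2 breeds were also compared in the other 4 glands, to see whether a difference was particular to testis. The interaction, which is the log2 difference of testis minus the mean of those in the other 4 glands, passed the same thresholds for 52 of the 485 entries (10.7%), 42 positive and 10 negative. Of the 46 entries called in testis, 27 passed it. The testis difference for which these entries were called is part of the interaction, so this count and the interactions of the called miRNAs below are not independent of those calls. The median log2 difference in the other glands was -0.43, against -0.11 in testis. When all 30 libraries were scaled by size factors, 22 entries passed, 18 positive and 4 negative, and the median interaction moved from 0.35 to 0.05.

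The increases of miR-129, miR-216, miR-217 and miR-221-3p in testis each differed from the mean difference of the other glands. The log2 difference of miR-217 was -1.22 in Epi, 0.33 in VG, 1.07 in PG and 0.11 in BG, with no call in any of the 4 glands, and its interaction was 2.38 (SE 0.58, adjusted p = 0.00573 by limma). miR-129b lay between -0.50 and -0.23 in those glands, with an interaction of 2.60 (SE 0.47, adjusted p = 0.000463). miR-221-3p had the opposite sign in all 4 glands, from -1.24 in BG to -0.75 in PG, and an interaction of 2.32 (SE 0.55, adjusted p = 0.00487). Its partner miR-222 missed the threshold (interaction 1.96, adjusted p = 0.0672). miR-615 was called lower in DSE in Epi, with -1.10 (adjusted p = 0.0420), against 1.88 in testis.

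Of the known miRNAs named above as lower in DSE, miR-18a passed the interaction, at -1.05 (SE 0.24, adjusted p = 0.00386 by limma). miR-7-5p was at -1.45 in Epi, -1.14 in VG, -1.08 in PG and -0.99 in BG, close to its -1.26 in testis, and its interaction was -0.09 (adjusted p = 0.945). miR-184 differed in sign among glands, with -4.54 in Epi (adjusted p = 0.0141), 0.67 in VG, 2.86 in PG and 2.96 in BG. Its interaction of -3.50 had an SE of 1.24 and missed the threshold (adjusted p = 0.0728).

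The 3 predicted miRNAs with the largest differences differed in every gland. The log2 difference of chr8_43390 was -5.73 in Epi, -4.70 in VG, -5.02 in PG and -6.35 in BG, and chr13_9416 was at -4.91, -3.95, -4.52 and -5.89 in the same order. The log2 difference of chr1_2528 was 1.95 in Epi, 3.34 in VG, 3.57 in PG and 2.92 in BG. All 12 of these passed the thresholds within the gland. Their abundance was highest in testis, and the part that abundance has in the size of these differences was not tested. The interactions of chr8_43390 (-2.24) and chr1_2528 (2.55) are a description, since the filter fixed their testis difference.

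**Figure D4:**
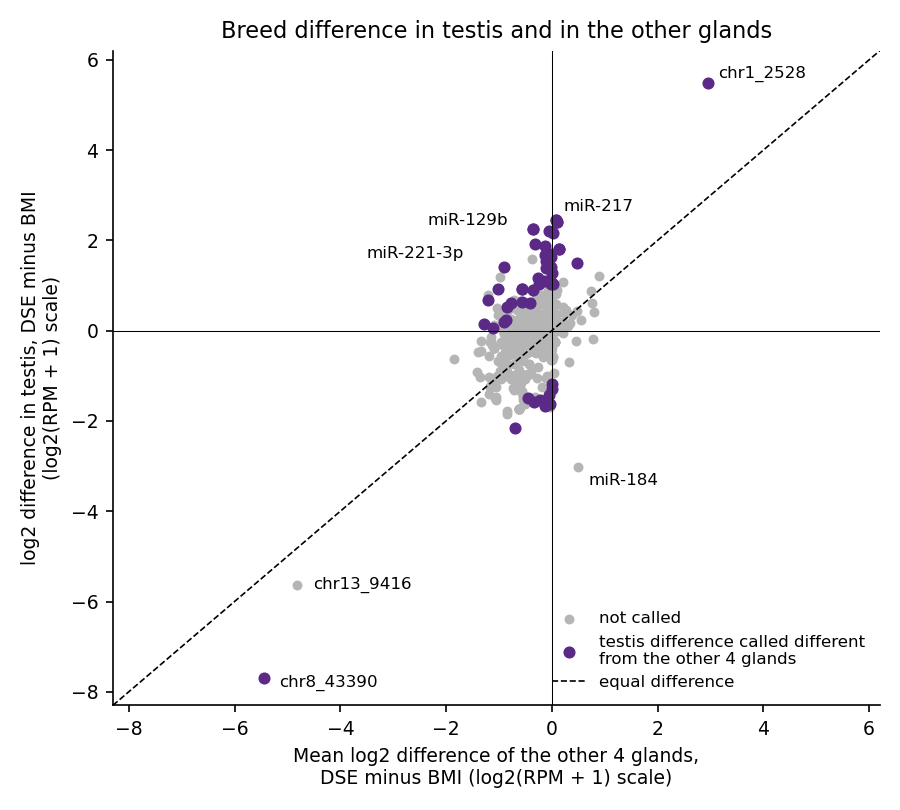
Log2 difference between the breeds (DSE minus BMI, log2(RPM + 1) scale) in testis against the mean of the differences in the other 4 glands, for 485 entries. Purple points passed the test of the difference between testis and the other glands, and the dashed line marks an equal difference. Of the labelled points, chr8_43390, chr13_9416 and chr1_2528 lie far from 0 on both axes, and miR-217 and miR-129b on the testis axis alone.

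The base composition of the mature sequence moved with the breed difference. A RefSeq sequence was found for 248 of the 299 known names tested (82.9%). Across these names, which are not independent replicates and share libraries, the share of G and C bases correlated with the log2 difference (Pearson's r = 0.36, Spearman's rho = 0.40), and r was 0.43 without DSE replicate 2. The 9 called names that were higher in DSE and have a sequence held a median of 57.1% G and C, the 11 that were lower 38.1%, and the 228 not called 47.6%. Both miR-129a-5p and miR-129b are among the 9, with 1 shared sequence of 57.1% G and C.
In the third of names with the fewest G and C bases, 1 was called higher and 9 lower. In the third with the most, 6 were called, all of them higher and with miR-129a-5p and miR-129b among them. Against the mean of the 6 libraries, abundance fell with G and C in all 3 BMI libraries, with slopes of -0.17 to -0.09 log2 per 10 percentage points. It rose in all 3 DSE libraries, with slopes of 0.09 to 0.17, which mirrors the fall because slopes against a common mean sum to 0. The same sign was found in the other glands, with r of 0.15 in Epi, 0.49 in VG, 0.25 in PG and 0.31 in BG.

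The 248 names were then fitted by themselves, with 1 value for each name and the p-values adjusted over these names alone, which gave 24 calls, 9 higher and 15 lower, where the fit over all 485 entries called 9 and 11 of them. Among the names added were miR-183 and miR-20a-5p, both with an adjusted p of 0.0369 by limma. With the replicate block their adjusted p were 0.0189 and 0.0210, and miR-17-5p was called as well (adjusted p = 0.0357). When the slope on G and C was removed from each library, this smaller fit gave 11 calls, 9 higher and 2 lower. The names it called with and without the correction were 9, and they were miR-129a-5p, miR-129b, miR-184, miR-18a, miR-216, miR-217, miR-221-3p, miR-222 and miR-615. With the correction and the replicate block together 18 names were called. Some calls were lost with a smaller difference and some with one still over 1. After the correction the log2 difference of miR-7-5p was -0.81 (adjusted p = 0.101 by limma) and that of miR-190a was -0.56 (adjusted p = 0.203). The differences of miR-182 (-1.34, adjusted p = 0.0542), miR-10a-5p (-1.20, adjusted p = 0.0615), miR-183 (-1.57, adjusted p = 0.0754) and miR-96-5p (-1.55, adjusted p = 0.0833) stayed larger, and of these miR-182, miR-183 and miR-96-5p were called with the correction and the block. The correction also added 2 calls, miR-202-5p at 1.23 and miR-221-5p at 1.24, both with an adjusted p of 0.0229 by limma. Whether base composition, the reads on entries or breed sets these differences was not tested.

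**Figure D5:**
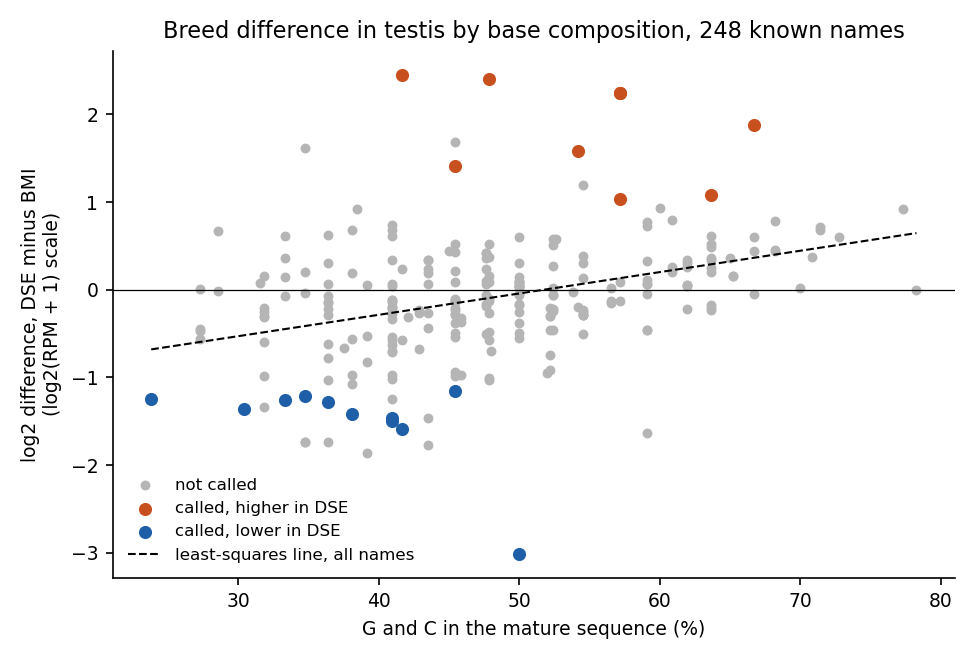
Log2 difference between the breeds in testis (DSE minus BMI, log2(RPM + 1) scale) against the percentage of G and C bases in the mature sequence, for 248 known names. Orange names are called higher in DSE and blue names lower, and the dashed line is the least-squares line over all names. The median share of G and C is 57.1% for the orange and 38.1% for the blue names.

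Many miRNAs are cut from an intron of a longer host transcript on the same strand, and RNA-seq of testis gives the level of the host. Of the genes tested by RNA-seq, 95 of 16319 (0.582%) passed the same thresholds, 34 higher and 61 lower in DSE. A gene span on the same strand held 156 of the miRNA names, and 98 distinct hosts were tested by RNA-seq. By limma with all libraries 0 of the tested hosts were called, while 11 had an unadjusted p below 0.05, as did 13.5% of all genes tested. A single host was called with a pseudocount of 0.1, without DSE replicate 2 and without DSE replicate 3, and it was SGMS2 in the last of these and an unnamed gene in the others. The 95 calls over all genes became 9 without BMI replicate 2 and 297 without DSE replicate 2. Among the tested hosts were 7 hosts of called miRNAs, none with an unadjusted p below 0.05.
MAP2K4, the host of miR-744, was at 8.74 to 9.36 TPM in BMI and at 10.6 to 15.5 TPM in DSE, with a log2 difference of 0.39 (adjusted p = 0.462). TRPM3, an ion channel gene and the host of miR-204, was at 40.7, 41.8 and 44.2 TPM in BMI and at 54.3, 15.4 and 41.5 TPM in DSE, with a log2 difference of -0.36 (adjusted p = 0.695). The lowest level of TRPM3 was that of DSE replicate 2, the library with the fewest spermatid transcripts.
HNRNPK, which holds one of the miR-7-5p copies, had a log2 difference of 0.06 (SE 0.23), beside -1.26 for the miRNA. TLN2, the host of miR-190a, had 0.21 (SE 0.44).

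In 65 hairpins both arms were tested, and their differences had like signs in 38, a count given with no test. By limma an arm was called in 6 of them and both arms in 1, miR-10a, beside 7.95% of all known entries called. In the miR-7 hairpin the abundant arm fell while the scarce arm had a log2 difference of -0.15, and miR-1306-3p rose while miR-1306-5p was at -0.23.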

How the data were processed

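Small RNA libraries of 5 glands were made with a small RNA kit and sequenced on an Illumina platform. The authors trimmed adapters with cutadapt, removed rRNA, tRNA, snRNA and snoRNA with Bowtie 1.3.1, and predicted and counted miRNAs with miRDeep2 on Sscrofa11.1. The deposited small RNA values are RPM with 2 decimals. The deposited RNA-seq values are TPM from Salmon 1.9.0 on Ensembl genes merged with long-read isoforms, summed here per gene.

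Entries with at least 1 RPM in at least 3 of 6 testis libraries were fitted with limma 3.58.1 on log2(RPM + 1), DSE minus BMI. Calls needed a Benjamini-Hochberg adjusted p below 0.05 and an absolute log2 difference of at least 1. Fold changes on this scale understate those of scarce miRNAs. Genes were fitted alike on log2(TPM + 1). The interaction used all 30 libraries in 10 groups. Whole reads were recovered from the RPM step (100% of testis values whole within 0.1 read) and tested with edgeR 4.0.16 and DESeq2 1.42.0.

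Libraries of the same replicate number deviated together (r = 0.223, 0.130 and 0.104), so the fit with a replicate block is given where it loses the call of a named miRNA. In RNA-seq the numbers did not pair libraries (r = -0.219, -0.029 and 0.160). Mature sequences and loci came from RefSeq, by name and arm, and 248 of 299 known names matched. Predicted miRNAs had no sequence among the sources used here. The miRNAs and lists were chosen with earlier results of these data known. Named are, in each direction, the 8 known miRNAs with the largest called differences, without overlap of the breeds and with at least 10 RPM in the higher breed. Also named in each direction are the 5 most abundant called ones and up to 3 predicted ones. The 10 most abundant miRNAs are named too, and of each list the called or else the most abundant member. The long-read isoforms were not used here.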

Additional observations from a re-analysis of the deposited data

Results flagged for a closer look

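The breed difference of testis differed from the mean difference of the other 4 glands in 52 of 485 entries by the interaction test, and these values are listed without an explanation. Among the named known miRNAs, the interaction on the log2(RPM + 1) scale was 2.38 for miR-217, 2.31 for miR-216, 2.60 for miR-129b and 2.59 for miR-129a-5p, which share reads. It was 2.01 for miR-615, 2.32 for miR-221-3p and 1.44 for miR-330, and -1.05 for miR-18a. Among predicted miRNAs it was 2.55 for chr1_2528, 2.25 for chr4_28420 and 2.14 for chr4_27487, and -2.24 for chr8_43390 and -1.46 for chr14_14086. Of these, chr1_2528, chr4_27487, chr8_43390 and chr14_14086 passed the filter through 1 breed of testis alone, so the testis part of their interaction had to differ and their values are a description.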

How the results depend on the processing

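The 46 calls in testis became 29 with a pseudocount of 0.1 (10 lower in DSE), 42 with size factors, 39 with the replicate block, 37 with no filter (14 lower), 34 with at least 10 RPM (13 higher), 43 with 1 value per name, 41 with edgeR, 59 with DESeq2 and 44 with all glands in 1 fit. With size factors and DSE replicate 2 left out there were 32, of which 10 were lower. Thinned to equal reads, an alternative chosen after seeing the data, there were 27, 15 higher and 12 lower. Leaving out a library gave 23 to 45 calls, 14 to 22 of them higher and 9 to 23 lower, with the fewest without BMI replicate 2. No called entry changed sign under these alternatives. Leaving out a library could not change a sign, since the breeds did not overlap in any of the 46 called entries. Of these, 21 were called in all 6 fits that leave out a library. The block lost the calls of miR-330, miR-744, miR-10a-5p and miR-204 among the named miRNAs, and 35 of its 39 calls were among the 46. The sign of miR-34c, which was not called, reversed to 0.64 with size factors and DSE replicate 2 left out. The interaction gave 22 calls with a pseudocount of 0.1, 22 with size factors, 53 with the block, and 34 to 49 when leaving out a testis library, with 34 without DSE replicate 2. The 24 names called among those with a sequence became 11 with the GC correction, 30 with the block and 18 with both, all chosen after seeing the data. The 95 genes called by RNA-seq became 9 to 297 when leaving out a library, with 9 without BMI replicate 2 and 297 without DSE replicate 2, and 227 with the replicate block, where the numbers do not pair libraries. The causes were not tested. The few reads on entries in BMI limit what can be said of miRNAs below about 2.32 RPM.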
